A study of Mus musculus with 8 samples.

Results

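The 8 mouse genes described here are Slc1a3, C1qtnf1, H60c, Akap2, Oat, Chst15, Crybg3 and Mef2a, of 23433 gene symbols counted in 8 RNA-seq libraries of newborn skin. They were chosen by their measured levels, counts scaled for library size, which were lower in both transgenic pups than in both control pups, in hair germ cells and in cells of the interfollicular epidermis. The transgenic against control values of these 8 genes are therefore a description and carry no test. Each library came from 1 sorted population of 1 pup at postnatal day 0.5, and every pup gave both populations. Transgenic (Tg) pups 4 and 6 had 2 transgenes. One was pTRE2-200bcl, from which a promoter that answers to doxycycline transcribes miR-200 hairpins, and the other was K14rtTA, the doxycycline-dependent activator driven by the keratin 14 promoter. Each control (ctrl) pup had only 1 of them, K14rtTA in pup 3 and pTRE2-200bcl in pup 5, so the genotypes of the controls were not the same. The mothers of all 4 pups ate doxycycline chow for the whole pregnancy, and the strain background of all pups was mixed. Cells were sorted for the reporter K14RFP and for high alpha6 integrin, with high P-cadherin taken as hair germ (HG) and low P-cadherin as interfollicular epidermis (IFE). Which miR-200 hairpins the construct holds is not stated in the labels. Each of the 4 groups had 2 pups, so each SD below rests on n = 2.

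The miR-200 family are small RNAs that pair, through a short seed near their 5′ end, with sites mostly in the 3′ untranslated regions (UTRs) of messenger RNAs, which lowers the stability or translation of those messengers. Epidermis and other epithelia are rich in the family, and the repressors Zeb1 and Zeb2 are its classical targets. In newborn skin the hair germ is the bud of basal cells that grows down to form a follicle, and the interfollicular epidermis is the stratified sheet between follicles, renewed from its basal layer. The 8 genes are of different kinds. C1qtnf1 encodes a secreted protein of the C1q and TNF related family, and H60c a surface ligand of NKG2D, an activating receptor of natural killer and some T cells. Slc1a3 encodes a glutamate and aspartate transporter, also described in stem cells of growing mouse skin. Oat encodes the mitochondrial ornithine aminotransferase and Chst15 a sulfotransferase that adds a sulfate to chondroitin sulfate. Akap2 encodes a protein that anchors protein kinase A, Crybg3 a protein with beta/gamma-crystallin domains, and Mef2a a transcription factor of the MEF2 family.

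The mature miR-200 sequences are shown because the construct is named for this family and because the seed defines which UTR letters were searched. Capitals mark the seed, bases 2 to 8. The sequences are from RefSeq, build GRCm38.p6.
mmu-miR-200b-3p, chr4:156055685-156055706, minus strand: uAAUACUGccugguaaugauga
mmu-miR-200c-3p, chr6:124718324-124718346, minus strand: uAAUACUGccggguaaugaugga
mmu-miR-429-3p, chr4:156053916-156053937, minus strand: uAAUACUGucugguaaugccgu
mmu-miR-200a-3p, chr4:156054911-156054932, minus strand: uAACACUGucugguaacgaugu
mmu-miR-141-3p, chr6:124717917-124717938, minus strand: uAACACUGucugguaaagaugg
The first 3 share the seed AAUACUG, whose complement in DNA letters is CAGTATT. The last 2 share AACACUG, with the complement CAGTGTT, and the 2 seeds differ at 1 base.

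Both heptamers were searched on the sense strand of the longest annotated 3′ UTR of each gene (GENCODE M21, GRCm38) (a match to one cannot be a match to the other). Of the 8 genes, 7 held at least 1 heptamer, and C1qtnf1 held neither in its 1612 bases. The heptamer CAGTATT was found in Crybg3 (3 times), Akap2 (2 times) and Oat (1 time). The heptamer CAGTGTT was found 4 times in Akap2 and 1 time each in Slc1a3, H60c, Chst15, Crybg3 and Mef2a. In all there were 15 matches, of which 3 were followed by an A, the letter that lengthens a seed match to its strongest class. A window of 30 bases is given for 1 match of each of the 7 genes, the one followed by A where there was one, with the heptamer in capitals and coordinates on GRCm38.
Crybg3, chr16:59492349-59492378, minus strand: ctcttatgggtgtggCAGTATTacacgaaa
Oat, chr7:132557647-132557676, minus strand: taaaacatttattttCAGTATTtctttgaa
Akap2, chr4:57896634-57896663, plus strand: aaaaaaaaatagcctCAGTGTTagagatgg
Slc1a3, chr15:8635531-8635560, minus strand: ctcatccattggcctCAGTGTTctcatccg
H60c, chr10:3257512-3257541, minus strand: atgcaggttctgggtCAGTGTTgctttccc
Chst15, chr7:132236006-132236035, minus strand: tgttgagagcacaggCAGTGTTttgggtga
Mef2a, chr7:67232007-67232036, minus strand: cagggaggacactgaCAGTGTTgctttaaa

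For comparison, 30.4% of the 12646 tested genes with an annotated 3′ UTR held at least 1 of the heptamers, 15.6% held CAGTATT and 21.0% held CAGTGTT. The UTRs of the 8 genes were longer, with a median of 2260.5 bases against 1214 bases over all tested genes. The share of all tested genes with a match grew with UTR length, from 16.1% at 500 to 1000 bases to 30.4% at 1000 to 2000, 49.0% at 2000 to 3000 and 62.1% at 3000 to 5000. Per kilobase of UTR the 8 genes held 0.771 matches and all tested genes held 0.275. Outside the 8, 17 genes with an annotated UTR were lower in transgenic hair germ at edgeR adjusted p under 0.05. Of these 52.9% held a match, with 0.354 per kilobase and a median UTR of 2707 bases. The 172 such genes that were lower in transgenic IFE held one in 51.2%, with 0.390 per kilobase and a median UTR of 1823.5 bases. Over all tested genes the median log2 fold change of transgenic over control was −0.05 in hair germ for genes with a match (n = 3850) and 0.08 for those without (n = 8796). In interfollicular epidermis the medians were −0.12 with a match and 0.03 without. Genes with and without a match were not matched for UTR length here, so these medians do not separate a match from a long UTR. These matches are letters in annotated UTRs and were not tested as sites of action.

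**Figure D1:**
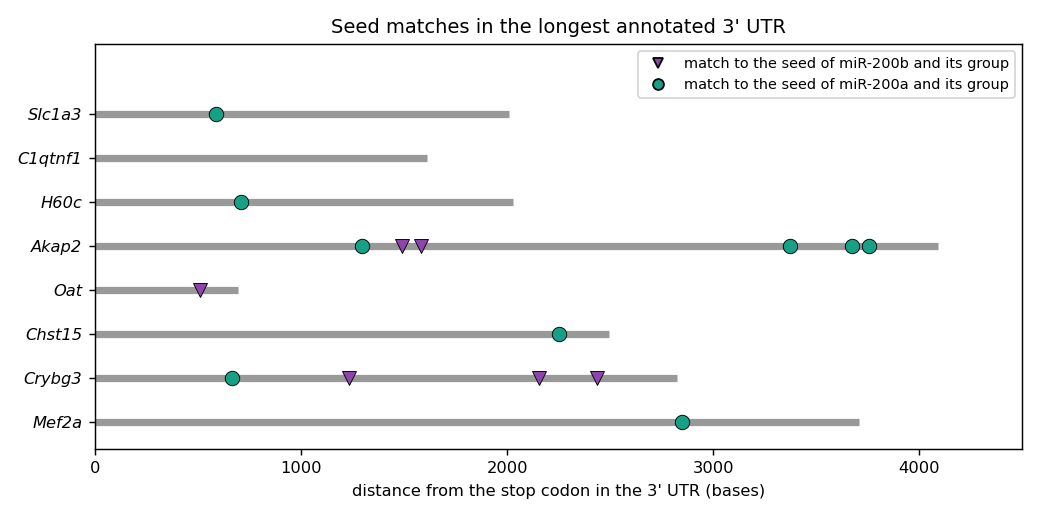
Positions of the heptamer matches along the longest annotated 3′ UTR of each of the 8 genes, as the distance in bases from the stop codon. Triangles mark matches to the seed of miR-200b, miR-200c and miR-429, circles matches to the seed of miR-200a and miR-141, and grey bars the UTRs, from 692 bases in Oat to 4091 bases in Akap2. Akap2 held 6 matches, Crybg3 held 4 and C1qtnf1 none.

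The libraries held 7109871 to 14039583 counts assigned to genes. The 8 genes had 38 to 5955 counts per library and all passed the filter on low counts, which left 14176 genes for testing. A feature named miR200primary, whose coordinates the labels do not state, had 525 and 797 CPM (counts relative to the TMM-scaled library size) in the transgenic hair germ libraries, against 0.176 and 1.39 CPM in the control ones. In interfollicular epidermis it had 606 and 714 CPM in transgenic libraries, against 3.83 and 2.63 CPM in control libraries. Ribosomal Rn45s took 29.0% of counts in the transgenic IFE library of pup 4 and 30.6% in the control IFE library of pup 3, against 3.56% to 13.0% in the other 6. No gene of the basal keratinocyte and hair germ marker lists was at 0 in a whole group. The summed hair germ list was 2049 and 2294 CPM in transgenic hair germ, against 1978 and 2592 CPM in control hair germ. Cdh3, which encodes P-cadherin, had 421 and 576 CPM in transgenic hair germ and 281 and 309 CPM in transgenic IFE, against 352 and 436 CPM in control hair germ and 293 and 386 CPM in control IFE. Within every pup Cdh3 was higher in hair germ than in IFE. Across the control pups its transcript ranges overlapped between the populations.

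All 8 genes were lower in transgenic than in control libraries of both populations with no overlap between the groups, as the choice required. The median log2 fold change of the 8 was −1.70 in hair germ and −1.84 in interfollicular epidermis, beside 0.04 and −0.01 over all tested genes. In hair germ the gap, the lower control over the higher transgenic library, was widest for C1qtnf1 (6.52), Slc1a3 (3.65) and H60c (3.41) and narrowest for Mef2a (1.94), Chst15 (1.74) and Crybg3 (1.67). The widest IFE gaps were those of C1qtnf1 (3.44), Slc1a3 (3.33) and Oat (3.26), and the narrowest those of Chst15 (2.39), Crybg3 (2.03) and Mef2a (1.57). Of all tested genes, 16.9% lay below both controls in both transgenic pups in hair germ, 25.0% did so in interfollicular epidermis, and 8.39% (1189 genes) did so in both. In bulk libraries such as these, fewer cells of a type and less RNA per cell cannot be told apart.

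C1qtnf1 (chr11:118428203-118449963, GRCm38), the secreted protein, had 7.21 and 4.60 CPM in hair germ of transgenic pups 4 and 6, against 78.8 and 47.0 CPM in control pups 3 and 5. The interfollicular libraries had 8.49 and 10.6 CPM of C1qtnf1 in transgenic pups, against 41.1 and 36.4 CPM in control pups. It had the widest separation of the 8 in hair germ, where the lower control was 6.52 times the higher transgenic library. The log2 fold change was −3.38 (SE 0.40) in hair germ and −2.00 (SE 0.38) in interfollicular epidermis. H60c (chr10:3256208-3267771), the NKG2D ligand, had 10.6 and 5.93 CPM in transgenic hair germ, against 36.3 and 36.8 CPM in control hair germ. In IFE libraries H60c had 26.1 and 15.9 CPM in transgenic pups, against 86.1 and 74.9 CPM in control pups. Its control hair germ libraries were nearly equal, and its IFE levels were higher than its hair germ levels in every pup. The log2 fold changes of H60c were −2.11 (SE 0.37) and −1.95 (SE 0.35).

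Slc1a3 (chr15:8634124-8710764), the glutamate transporter, had 17.8 and 10.1 CPM in transgenic hair germ, against 64.9 and 86.2 CPM in control hair germ. Its IFE values were 16.2 and 20.1 CPM in transgenic pups, against 66.8 and 142 CPM in control pups. The 2 control IFE libraries were the most unequal pair of the 8 genes, with pup 5 at 2.13 times pup 3, and the transgenic IFE pair was close. The log2 fold change was −2.42 (SE 0.40) in hair germ and −2.53 (SE 0.39) in interfollicular epidermis.

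Oat (chr7:132557478-132576398), the ornithine enzyme, had 49.4 and 27.6 CPM in transgenic hair germ, against 139 and 119 CPM in control hair germ. Its IFE values were 48.1 and 45.3 CPM in transgenic pups, against 176 and 157 CPM in control pups. Its log2 fold changes, −1.73 (SE 0.28) in hair germ and −1.83 (SE 0.28) in interfollicular epidermis, differed by less than their SE. Chst15 (chr7:132235780-132317228), the sulfotransferase, had 101 and 115 CPM in transgenic hair germ, against 230 and 201 CPM in control hair germ. In interfollicular epidermis it had 87.9 and 90.6 CPM in transgenic pups, against 229 and 216 CPM in control pups. Chst15 was the only one of the 8 with the higher transgenic hair germ value in pup 6. Its hair germ mean was 108 ± 10.3 CPM in transgenic pups, against 216 ± 20.9 CPM in control pups (SD, n = 2 each), and its log2 fold change in interfollicular epidermis was −1.32 (SE 0.20).

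Akap2 (chr4:57717657-57896984), the kinase anchor, had 53.4 and 35.1 CPM in transgenic hair germ, against 135 and 146 CPM in control hair germ. The IFE libraries had 26.6 and 30.1 CPM in transgenic pups, against 88.1 and 115 CPM in control pups. Its hair germ values were above its IFE values within every pup, and its log2 fold changes were −1.66 (SE 0.26) and −1.84 (SE 0.27). Palm2, the annotated gene 5.64 kb upstream, is joined with Akap2 in RefSeq as Pakap, so the division of reads between the 2 symbols is uncertain. Palm2, named after its values were seen, had 33.9 and 6.42 CPM in transgenic hair germ, against 57.4 and 72.5 CPM in control hair germ. In interfollicular epidermis Palm2 had 10.9 and 14.3 CPM in transgenic pups, against 22.1 and 56.8 CPM in control pups. With log2 fold changes of −1.66 in each population, Palm2 did not pass the test (edgeR adjusted p = 0.181 in hair germ and 0.163 in interfollicular epidermis).

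Crybg3 (chr16:59490775-59600979) had 87.4 and 67.4 CPM in transgenic hair germ, against 146 and 176 CPM in control hair germ. The IFE libraries had 109 and 98.7 CPM in transgenic pups, against 222 and 220 CPM in control pups. The control IFE pair of Crybg3 was nearly equal, and the log2 fold changes were −1.05 (SE 0.22) and −1.09 (SE 0.22). Mef2a (chr7:67231163-67372858), the transcription factor, had 159 and 143 CPM in transgenic hair germ, against 308 and 357 CPM in control hair germ. In interfollicular epidermis it had 236 and 242 CPM in transgenic pups, against 379 and 505 CPM in control pups. This was the narrowest separation of the 8 in either population, with the lower control at 1.57 times the higher transgenic library, and the log2 fold changes of Mef2a were −1.14 (SE 0.21) and −0.89 (SE 0.21). In unscaled counts Crybg3 and Mef2a overlapped between groups in interfollicular epidermis, so their order there rests on the scaling for library size. The annotated genes Gm11747, Gm10584 and Lysmd4 overlap C1qtnf1, Chst15 and Mef2a. Whether the counting used strand is not stated in the labels, so a share of these counts is uncertain.

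**Figure D2:**
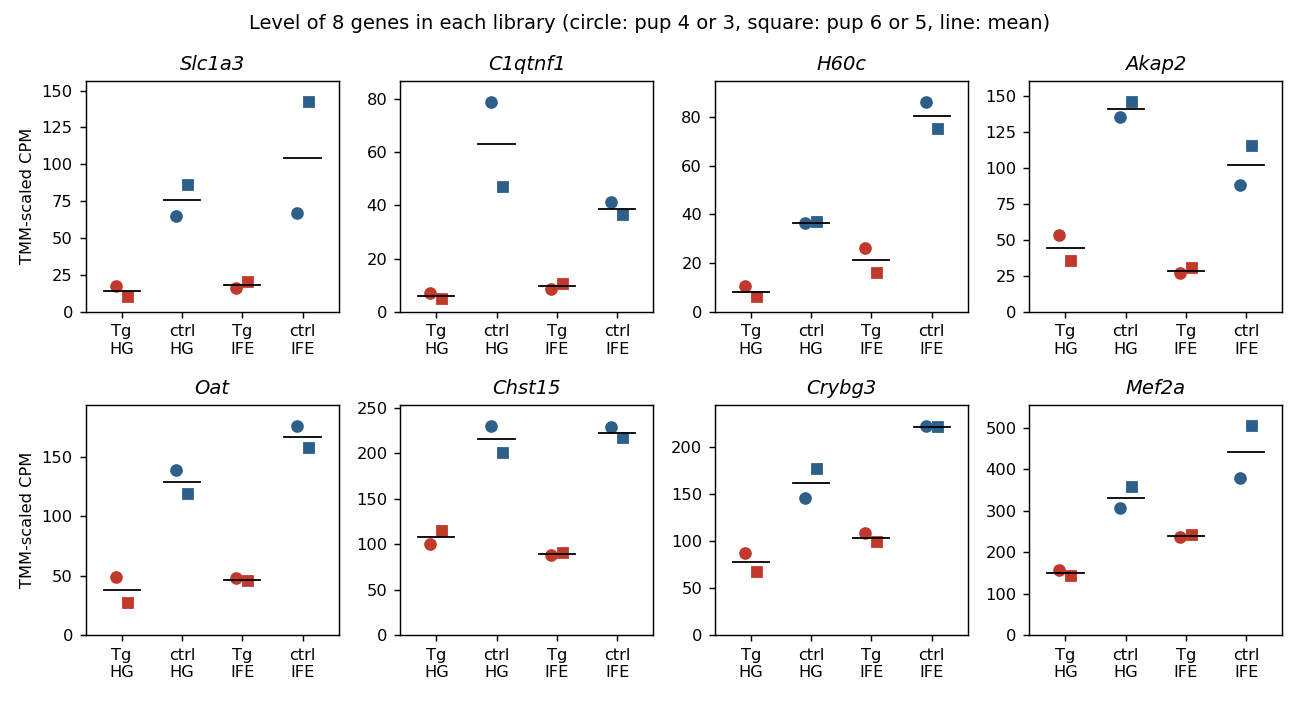
Level of each of the 8 genes in every library, in TMM-scaled CPM on an axis that starts at 0, with transgenic groups in red and control groups in blue. Circles are pups 4 and 3, squares are pups 6 and 5, and lines are means of 2 pups. In every panel both transgenic libraries lie below both control libraries of the same population.

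The 2 transgenic hair germ libraries were not alike for these genes. Pup 6 was lower than pup 4 in 7 of 8 genes, with a median ratio of 0.648 over the 8. In the other groups the corresponding ratios of the second pup to the first had medians of 1.03 in transgenic IFE, 1.05 in control hair germ and 0.968 in control IFE. The share of all tested genes lower in pup 6 was not counted here. In transgenic hair germ the basal keratinocyte list sum was also lower in pup 6 (23316 against 28337 CPM in pup 4). The hair germ list sum was higher there (2294 against 2049 CPM). The 8 genes also shared their pattern over the 8 libraries. The Pearson r of log2 CPM ranged from 0.652 to 0.978 over the 28 pairs of genes, with a median of 0.899. These r describe libraries that share the group difference by which the genes were chosen.

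Of the marker lists, the basal keratinocyte and fibroblast sums were lower in transgenic than in control libraries of both populations. The immune cell, melanocyte, Merkel cell, dermal papilla and endothelial sums were higher, and the suprabasal sum overlapped between the groups. The hair germ list sum overlapped in hair germ and was lower in interfollicular epidermis, with 1503 and 1603 CPM in transgenic pups, against 1688 and 2864 CPM in control pups. The summed level of the 16 basal keratinocyte genes was 28337 and 23316 CPM in transgenic hair germ, against 38354 and 35784 CPM in control hair germ. The IFE sums were 22449 and 22572 CPM in transgenic pups, against 41656 and 47327 CPM in control pups. In interfollicular epidermis 8 of these 16 genes fell at edgeR adjusted p under 0.05, among them Krt14, whose promoter drives the activator (−1.08, SE 0.29, adjusted p = 0.0484), and in hair germ none did, beside 1.35% and 0.19% of all tested genes. In hair germ 6 of the 16 were lower at an unadjusted p under 0.05, beside 5.88% of all tested genes. There DESeq2 called 4 lower, beside 162 of all tested genes, and limma-voom 0, beside 6. The summed level of the immune cell list was 389 and 232 CPM in transgenic hair germ, against 147 and 68.5 CPM in control hair germ. In interfollicular epidermis it was 3247 and 2597 CPM in transgenic pups, against 238 and 114 CPM in control pups. Of 15 tested immune genes 3 rose in hair germ and 13 rose in interfollicular epidermis, beside 0.762% and 4.99% of all tested genes. The melanocyte list summed to 154 and 194 CPM in transgenic hair germ, against 32.7 and 32.7 CPM in control hair germ, and to 166 and 144 CPM in transgenic IFE, against 24.4 and 21.3 CPM in control IFE. In control IFE, Tyrp1, Mlana, Sox10, Slc45a2 and Oca2 of the melanocyte list were at 0. Of 10 tested melanocyte genes 4 rose in hair germ and 5 in interfollicular epidermis, against the same shares of all tested genes.

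The Merkel cell list summed to 83.9 and 60.5 CPM in transgenic hair germ, against 38.8 and 25.1 CPM in control hair germ, and to 29.7 and 40.02 CPM in transgenic IFE, against 12.2 and 9.33 CPM in control IFE. Of its 9 tested genes only Krt18, a keratin of simple epithelia, passed (4.75, edgeR adjusted p = 0.00565 in interfollicular epidermis), and Atoh1 was at 0 in both IFE groups. The fibroblast list summed to 79.3 and 123 CPM in transgenic hair germ, against 156 and 344 CPM in control hair germ, and to 41.0 and 67.1 CPM in transgenic IFE, against 82.3 and 257 CPM in control IFE. Its genes Dpt and Twist2 were at 0 in both hair germ groups, and Lum and Twist2 in both IFE groups. The dermal papilla list summed to 34.2 and 26.2 CPM in transgenic hair germ, against 25.0 and 23.0 CPM in control hair germ, and to 57.1 and 45.8 CPM in transgenic IFE, against 16.9 and 37.6 CPM in control IFE. The endothelial list summed to at most 19.1 CPM in any library, with Emcn and Cldn5 at 0 in every group. None of the 4 tested genes of each of these last 3 lists passed in either population. The suprabasal list summed to 1460 and 1164 CPM in transgenic hair germ, against 1884 and 1154 CPM in control hair germ, and to 2856 and 1965 CPM in transgenic IFE, against 4885 and 1946 CPM in control IFE, and none of its 13 genes passed. The part of all these cells in the values of the 8 genes was not tested.

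The levels of the 8 genes were also set relative to the summed basal keratinocyte list of the same library, a scale chosen after seeing the data. The 8 were chosen for lying below both controls in these same libraries. Their counts on this scale are therefore a description and carry no test. In hair germ all 8 genes still lay below both controls, as did 3.77% of all tested genes on that scale, and their median log2 ratio was −1.21. In interfollicular epidermis 6 of 8 did, beside 1.37% of all tested genes, and the median was −0.86. Crybg3 and Mef2a overlapped between the groups there. Mef2a had 10.5 and 10.7 per 1000 of the basal sum in transgenic IFE, against 9.11 and 10.7 in control IFE. Crybg3 had 4.84 and 4.37 per 1000 in transgenic IFE, against 5.33 and 4.66 in control IFE. For C1qtnf1 the groups stayed apart in both populations, with 0.255 and 0.197 per 1000 in transgenic hair germ, against 2.06 and 1.31 in control hair germ. In interfollicular epidermis C1qtnf1 had 0.378 and 0.468 per 1000 in transgenic pups, against 0.986 and 0.769 in control pups. Slc1a3 had 0.720 and 0.890 per 1000 in transgenic IFE, against 1.60 and 3.01 in control IFE.

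**Figure D3:**
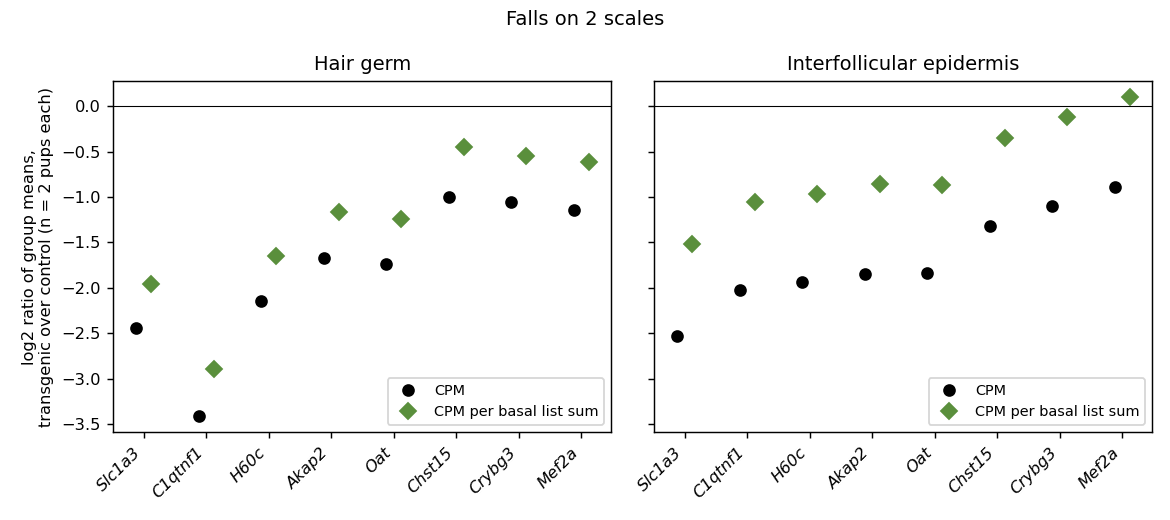
Log2 ratio of group means, transgenic over control (n = 2 pups each), for the 8 genes in hair germ and in interfollicular epidermis. Black circles are ratios of CPM and green diamonds are ratios of CPM divided by the summed basal keratinocyte list of the same library. In interfollicular epidermis the diamonds of Crybg3 (−0.12) and Mef2a (0.10) lie near 0.

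The sizes of the difference in the 2 populations were close for 7 genes. The hair germ minus IFE difference of log2 fold changes ranged from −0.25 to 0.32 for those 7, with SEs of 0.28 to 0.54. For C1qtnf1 it was −1.38 (SE 0.55), the transgenic deficit being larger in hair germ. Both arms of this difference were used in choosing the genes, so it carries no test, and both populations came from the same pups. Outside the 8, 10 genes, 0.0706% of those tested, were lower in both populations at edgeR adjusted p under 0.05 in each, namely Adamts14, Bmpr1b, Cdon, Cxcr7, Frmd6, H19, Igf2, Ptch1, Ror1 and Wnt7a.

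**Figure D4:**
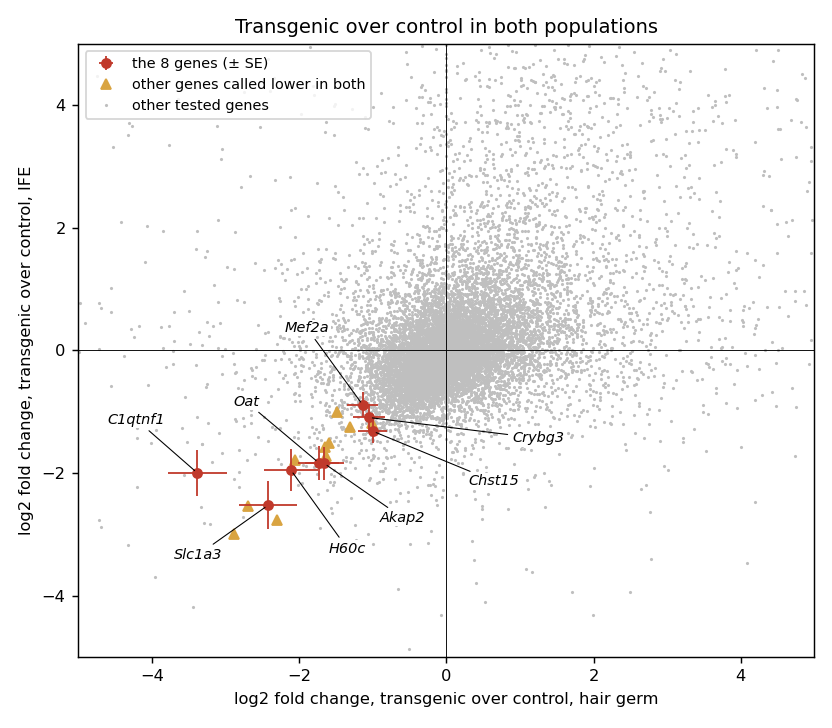
Log2 fold change of transgenic over control in hair germ (horizontal) and in interfollicular epidermis (vertical). Grey points are all tested genes within 5 of 0 on both axes, red circles the 8 genes with their SE, and triangles the 10 other genes lower in both populations at adjusted p under 0.05. C1qtnf1 lies farthest left at −3.38, and the 8 genes otherwise lie near the diagonal.

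Hair germ against interfollicular epidermis was not used in choosing the genes, so this contrast was tested. H60c was lower in hair germ than in interfollicular epidermis in 4 of 4 pups, with ratios of 0.407 and 0.372 in transgenic pups 4 and 6, against 0.421 and 0.491 in control pups 3 and 5. Over all pups it fell by 1.22 on the log2 scale (SE 0.25, edgeR adjusted p = 0.0237), the 1 gene of the 8 to pass, beside 2.39% of all tested genes that were lower in hair germ over all pups and 1.0% that were higher. With the pup as a block the adjusted p of H60c over all pups was 0.00844. Leaving out 1 library ended the call for control IFE pup 3 (0.0792), control IFE pup 5 (0.0635), transgenic hair germ pup 6 (0.102) and transgenic IFE pup 4 (0.169).

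Mef2a was lower in hair germ in 4 of 4 pups, with ratios of 0.672 and 0.592 in transgenic pups 4 and 6, against 0.811 and 0.706 in control pups 3 and 5. Its log2 difference over all pups was −0.54 (SE 0.14, edgeR adjusted p = 0.0668), and with the pup as a block it passed (adjusted p = 0.0229). Crybg3 was lower in hair germ in 4 of 4 pups (−0.44, SE 0.15, edgeR adjusted p = 0.144), and Akap2 was higher in 4 of 4 pups (0.55, SE 0.19, edgeR adjusted p = 0.132). Neither passed. Slc1a3, Oat and Chst15 had log2 differences of −0.43, −0.32 and 0.11 over all pups with SEs of 0.27, 0.19 and 0.14, and did not pass. C1qtnf1 was lower in hair germ in both transgenic pups (ratios 0.849 and 0.435), against higher in both control pups (1.92 and 1.29), and its mean over all pups was 0.01 (SE 0.29).

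Within transgenic pups none of the 8 genes passed in edgeR, beside 0.875% of all tested genes higher and 3.75% lower in hair germ. There 3 of the 8 had an unadjusted p under 0.05, beside 18.5% of all tested genes, and DESeq2 called 2 and limma-voom 0. Of all tested genes DESeq2 called 243 higher and 636 lower there, and limma-voom 88 and 470. H60c had a log2 difference of −1.30 (SE 0.38, edgeR adjusted p = 0.0775) and Mef2a one of −0.66 (SE 0.21, edgeR adjusted p = 0.0996). With the pup as a block H60c (0.0332) and Mef2a (0.0336) passed in transgenic pups. Within control pups none of the 8 passed in edgeR, DESeq2 or limma-voom, and 1 of the 8, H60c, had an unadjusted p under 0.05 (−1.14, SE 0.33), beside 8.47% of all tested genes. In that contrast 0.00705% of all tested genes, 1 gene, was higher in hair germ and none was lower.

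**Figure D5:**
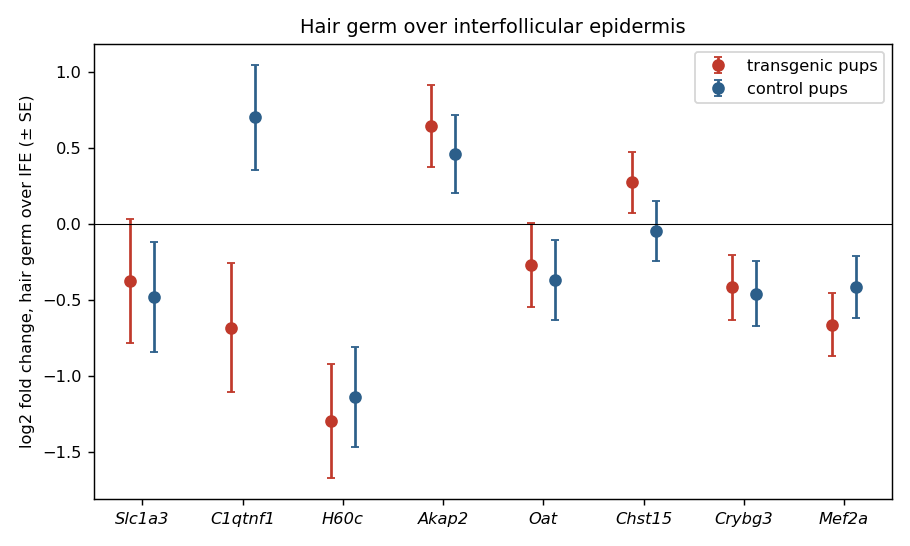
Log2 fold change of hair germ over interfollicular epidermis with its SE for the 8 genes, in transgenic pups (red) and in control pups (blue). H60c lies lowest in both genotypes (−1.30 in transgenic and −1.14 in control pups). C1qtnf1 had values of opposite sign, −0.68 (SE 0.42) in transgenic and 0.70 (SE 0.35) in control pups. Neither value of C1qtnf1 passed (edgeR adjusted p = 0.443 and 0.608).

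The families and pathways of the 8 genes gave 127 list entries without the genes themselves, of which 123 were counted and 92 passed the filter. In hair germ 1 of the 92 rose and none fell, beside 0.762% of all tested genes higher and 0.19% lower. There 13 of the 92 were higher and 11 lower at an unadjusted p under 0.05, beside 11.2% and 5.88% of all tested genes. DESeq2 called 4 higher and 3 lower, beside 486 and 162 of all tested genes. Limma-voom called 0 in either direction, beside 11 higher and 6 lower. In interfollicular epidermis 6 rose and 4 fell, beside 4.99% higher and 1.35% lower. Leaving out control IFE pup 3 left 6 calls in interfollicular epidermis, control IFE pup 5 left 5, transgenic IFE pup 4 left 3 and transgenic IFE pup 6 left 4. The single hair germ call was lost without transgenic hair germ pup 4 and without pup 6 there.

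That call was Gatm, which makes guanidinoacetate, the precursor of creatine, from arginine and is in the list of ornithine enzymes. Gatm had 7.39 and 9.57 CPM in transgenic hair germ, against 0 counts in hair germ of either control pup, and was at least 73.2-fold higher against a floor of 3 counts over the control group (edgeR adjusted p = 0.0149). In interfollicular epidermis Gatm had 128 and 88.1 CPM in transgenic pups, against 5.92 and 2.12 CPM in control pups, with a log2 fold change of 4.90 (SE 0.49, edgeR adjusted p = 0.000242). That fold change was 5.72 without control IFE pup 3 and 4.18 without control IFE pup 5, and the call held in all 16 alternatives tried (other scalings, filters, fits and tools, or libraries left out). In the same list Sat1, the acetyltransferase that starts polyamine breakdown, rose in interfollicular epidermis by 1.30 (SE 0.25, edgeR adjusted p = 0.00941), a call lost without control IFE pup 3 (0.0663) and without transgenic IFE pup 4 (0.133). The other 17 tested genes of this list did not pass in either population.

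Among glutamate transport and enzyme genes, Slc38a1, a glutamine transporter, rose in interfollicular epidermis to 62.5 and 54.4 CPM in transgenic pups, against 5.22 and 3.22 CPM in control pups (log2 fold change 3.86, SE 0.59, edgeR adjusted p = 0.00209), a call lost without control IFE pup 5 (0.0529). Its relative Slc38a2 fell there by 0.96 (SE 0.22, edgeR adjusted p = 0.0199), a call held in 8 of 16 alternatives. It was lost with library size alone as the scaling (0.263), without control IFE pup 5 and without any of the 4 transgenic libraries (0.0637 to 0.232). Among MEF2 factors and their deacetylase partners, Mef2c rose in interfollicular epidermis to 133 and 114 CPM in transgenic pups, against 16.7 and 2.54 CPM in control pups (3.85, SE 0.59, edgeR adjusted p = 0.00222). The fold change of Mef2c was 5.66 without control IFE pup 3 and 2.89 without control IFE pup 5, and the call held in both. Hdac9, a class IIa deacetylase that binds MEF2 factors, rose there with 12.4 and 14.1 CPM in transgenic pups, against 0.174 and 0.0848 CPM in control pups (edgeR adjusted p = 0.0370), a call held in 8 of 16 alternatives and lost without any of the 4 IFE libraries (0.131 to 0.377), with limma-voom (0.112) and with the edgeR legacy method (0.0622). The control value of Hdac9 rests on 2 counts, which gives a ratio of 118 with a 95% exact interval of 32.5 to 982 that covers counting error only. Mef2a was chosen for its lower transgenic values, so the opposite direction of Mef2c and Hdac9 is a description and no test. In the same IFE libraries the immune cell list was 3247 and 2597 CPM in transgenic pups, against 238 and 114 CPM in control pups. The part of immune cells in the values of Mef2c and Hdac9 was not tested.

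Among chondroitin and dermatan sulfate enzymes, the sulfotransferase Chst3 fell in interfollicular epidermis to 9.70 and 10.6 CPM in transgenic pups, against 53.8 and 27.2 CPM in control pups (−1.96, SE 0.41, edgeR adjusted p = 0.0141). Without control IFE pup 3 Chst3 was at −1.35 and the call was lost (0.157), as it was without transgenic IFE pup 4 (0.137), without pup 6 (0.130) and with limma-voom (0.0513). The dermatan sulfate epimerase Dse rose there by 1.41 (SE 0.38, edgeR adjusted p = 0.0466), a call held in 8 of 16 alternatives and lost without any of the 4 IFE libraries (0.0727 to 0.430), with limma-voom (0.0563) and with the edgeR legacy method (0.0821). In the kinase A list Prkar2a, a regulatory subunit of protein kinase A, fell there by 0.85 (SE 0.22, edgeR adjusted p = 0.0362). The call of Prkar2a held in 5 of 16 alternatives, and was lost with library size alone (0.401), with no filter on low counts (0.0683), with the edgeR legacy method (0.0568) and without any library except the control hair germ ones (0.0640 to 0.474). In the crystallin domain list Aim1, the older symbol of Crybg1, fell there to 146 and 161 CPM in transgenic pups, against 319 and 311 CPM in control pups (−1.03, SE 0.18, edgeR adjusted p = 0.00567). That call was lost with library size alone (0.158), without transgenic IFE pup 4 (0.144) and without transgenic IFE pup 6 (0.0767). No other tested gene of these lists passed, nor did any of the 5 tested C1q and TNF related genes or the 2 tested NKG2D ligand genes.

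Of the 8 genes, 3 (Oat, Chst15 and Mef2a) are on chromosome 7, and Oat and Chst15 lie 240 kb apart. The nearest tested genes around the 8, up to 5 on each side, numbered 66 and lay up to 5151 kb away. Their median log2 fold change was 0.05 in hair germ and −0.01 in interfollicular epidermis. In hair germ 1 of the 66 rose and none fell, beside 0.762% of all tested genes higher and 0.19% lower. In interfollicular epidermis 5 rose and none fell, beside 4.99% and 1.35%. At an unadjusted p under 0.05, 5 were lower in hair germ and 6 in interfollicular epidermis, beside 5.88% and 6.56% of all tested genes. DESeq2 called 1 lower in each, beside 162 and 293 of all tested genes, and limma-voom 0, beside 6 and 165. At the same unadjusted threshold 7 were higher in hair germ and 7 in interfollicular epidermis, beside 11.2% and 10.8%. DESeq2 called 3 and 4 higher, beside 486 and 778 of all tested genes, and limma-voom 0 and 4, beside 11 and 496. The hair germ call was Ppp1r14c, an inhibitor of protein phosphatase and the nearest neighbour of H60c, at 64.7 and 64.5 CPM in transgenic hair germ, against 24.6 and 29.2 CPM in control hair germ (1.26, SE 0.26, edgeR adjusted p = 0.0481). It was lost without any of 7 single libraries, all except control hair germ pup 5.

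The 5 neighbours that rose in interfollicular epidermis were Il7r, Lgals3bp, Timp2, Cyth1 and Adamts17. Il7r lies 795 kb from Slc1a3, and Adamts17 lies 78.0 kb from Mef2a. Lgals3bp, Timp2 and Cyth1 lie 26.1, 72.5 and 180 kb from C1qtnf1. Il7r, a cytokine receptor of lymphocytes, had 116 and 76.6 CPM in transgenic IFE, against 5.57 and 0.763 CPM in control IFE (5.22, SE 1.08, edgeR adjusted p = 0.0134). The fold change of Il7r was 7.01 without control IFE pup 3 and 4.11 without control IFE pup 5, where the call was lost (0.147), as it was with DESeq2 (0.182) and the edgeR legacy method (0.110). Lgals3bp had a log2 fold change of 3.50 (SE 0.92, edgeR adjusted p = 0.0437) and passed in 6 of 16 alternatives. It did not pass in DESeq2 (0.397), limma-voom (0.0533) or the edgeR legacy method (0.214), or without either control IFE library, either transgenic hair germ library or transgenic IFE pup 4 (0.116 to 0.281). The log2 fold changes of the other 3 were 2.50 for Timp2 (edgeR adjusted p = 0.00325), 1.55 for Cyth1 (0.00767) and 1.65 for Adamts17 (0.00420). Those calls were lost without control IFE pup 5 for Timp2 (0.0687) and Adamts17 (0.0628), without control IFE pup 3 (0.0572) and transgenic IFE pup 4 (0.113) for Cyth1, and without transgenic IFE pup 6 (0.0701) for Adamts17. Without control IFE pup 5 the count was 1, without transgenic IFE pup 4 it was 3, and without control hair germ pup 5 it was 8. Between Oat and Chst15 the 1 tested gene was Gm10584, which overlaps the start of Chst15, a gene of the minus strand. Gm10584 had at most 4.60 CPM in any library.

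Among 10105 expressed genes, those most like the mean of the 8 over the 8 libraries were Cdon (Pearson r 0.990), Anln (0.989), Fam168b (0.979), Cxcr7 (0.978) and Frmd6 (0.972). Cdon encodes a cell surface protein of Hedgehog signalling, Anln an actin-binding protein of cell division, and Cxcr7 an atypical chemokine receptor. Cdon was also the gene most like Slc1a3 (0.980), Igf2, a fetal growth factor, most like H60c (0.981), and Anln most like Oat (0.995). Naa16 was most like C1qtnf1 (0.984), Lgalsl most like Akap2 (0.987), Nucks1 most like Chst15 (0.986), Cnih4 most like Crybg3 (0.983) and Npm1 most like Mef2a (0.990). The 8 libraries come from 4 pups in 4 groups, and these r too share the group difference by which the 8 genes were chosen. Second closest were H19 for both Slc1a3 (0.979) and Mef2a (0.979), Ubr3 for C1qtnf1 (0.981), Xiap for H60c (0.969), Cxcr7 for Oat (0.988), Glce for Chst15 (0.974) and Zfp185 for Crybg3 (0.980).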

How the data were processed

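The authors deposited whole-number read counts per gene symbol, 1 table per library, with 5 summary lines left out here. TopHat, HTSeq, DESeq2 and the builds mm10 and GRCm38 are named in the submitters' processing notes, and their versions and any strand option are not stated there. Libraries were made with a stranded, low-input total RNA kit after Trizol extraction, per the labels' protocols. A deposited matrix of normalised values was not used here. Counts were tested with edgeR 4.0.16 (quasi-likelihood, TMM, filterByExpr) in R 4.3.3, in 1 fit of 4 group means over 8 libraries, two-sided, with Benjamini-Hochberg adjustment over 14176 genes and a threshold of 0.05. An SE is the absolute log2 fold change divided by the square root of F. The test was checked on simulated data for 1 contrast, hair germ against interfollicular epidermis in control pups. At adjusted p under 0.05 it recovered 3.1% of 96 genes changed 2-fold and 48.4% of 91 changed 4-fold. It also called 12 of 13512 unchanged genes. Beside the changed genes recovered, these 12 were a larger share of all calls in this simulation than the threshold of 0.05 allows. A gene that passed may therefore be unchanged more often than that threshold states. A gene that did not pass in that contrast may still differ. The fit had a common biological coefficient of variation of 0.475 and 4 residual degrees of freedom, which limits the small differences that could be called. The p-values rest on the spread between libraries of the same group, 2 pups each. The estimate of that spread was shared in part over all genes (prior degrees of freedom 7.82). The main fit treated the 2 libraries of a pup as independent. Intervals and the floor of 3 counts cover counting error only.

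The members and lists were chosen with earlier results of these data known. Named besides the 8 genes are, from each pathway list, up to 3 genes with the smallest p among those passing in a transgenic contrast, all neighbours that passed (at most 4 per gene), the 5 genes most correlated with the mean of the 8 and the 2 most correlated with each, among genes whose log2 CPM averaged 2 or more, clone names left out. The result for 1 gene that this rule names is not reported here. Hair germ and interfollicular libraries of the same number come from the same pup, per the labels. The deviations from group means of same-pup libraries correlated by 0.0868 in transgenic pups and 0.117 in control pups over all tested genes, and by 0.191 in transgenic and 0.394 in control pups over the 7362 genes whose log2 CPM averaged 4 or more. Alternatives were DESeq2 1.42.0 (size factors and Wald test), limma 3.58.1 voom, library size alone, no filter, the older edgeR method, the pup as a block, each library left out, both libraries of pup 4 left out, and the 2 libraries richest in Rn45s left out. Gene positions and 3′ UTRs are from GENCODE M21, in which 13290 tested symbols had 1 position. All 5 miRNA names searched matched RefSeq.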

Additional observations from a re-analysis of the deposited data

Results flagged for a closer look

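C1qtnf1 was lower in hair germ than in interfollicular epidermis in both transgenic pups (0.849 and 0.435 times), against higher in both control pups (1.92 and 1.29 times). The hair germ over interfollicular log2 fold change in transgenic minus that in control pups was −1.38 (SE 0.55). It is listed because every pup of one genotype moved one way and every pup of the other moved the opposite way. With 2 pups per genotype such a split can arise without a difference between genotypes. The share of all tested genes with this pattern was not counted. The difference was not tested, since both arms entered the choice of the gene.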

How the results depend on the processing

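The transgenic against control log2 fold changes of the 8 genes stayed below 0 under each alternative run but 1, the scale relative to the basal keratinocyte list, on which Mef2a in interfollicular epidermis was 0.10. Their median ranged from −2.15 to −1.41 in hair germ and from −1.83 to −1.68 in interfollicular epidermis with 1 library left out. On that scale, added after seeing the data, the median in interfollicular epidermis was −0.86. The genes were chosen for lower transgenic values in these same libraries, so the signs that stayed below 0 are no test of the falls.

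Of the 8 genes, the number passing between populations was 1 over all pups and 0 in transgenic pups. With the pup as a replicate block it was 2 over all pups and 2 in transgenic pups, H60c and Mef2a in each, and the block changed no other call of the 8. Of all 14176 tested genes the block called 255 higher and 571 lower over all pups, against 142 and 339 in the main fit. In transgenic pups it called 270 higher and 748 lower, against 124 and 531. DESeq2's Wald test called 330 of all tested genes higher and 684 lower over all pups, and 243 and 636 in transgenic pups. The number of the 8 that passed was 2 and 2 by DESeq2. Over all pups it was 0 with library size alone, with limma-voom, without pup 4 and without the libraries richest in Rn45s. With 1 library left out it ranged from 0 to 2 over all pups, from 0 to 1 in transgenic pups, and was 0 throughout in control pups. The block could not be applied to transgenic against control, since each pup has 1 genotype.

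Of the pathway genes, 1 passed in hair germ, against 5 with library size alone, 2 without the filter, 7 by DESeq2, and 0 by limma-voom, without pup 4 and without the Rn45s-rich libraries (0 to 4 with 1 library left out). In interfollicular epidermis 10 passed, against 2 without pup 4 and 2 without the Rn45s-rich libraries (3 to 13 with 1 left out). Of the neighbours, 1 passed in hair germ, against 4 by DESeq2 and 0 without the filter, by limma-voom, by the older edgeR method, without pup 4 and without the Rn45s-rich libraries (0 to 3 with 1 left out). In interfollicular epidermis 5 passed, against 3 by the older method, 1 without pup 4 and 1 without the Rn45s-rich libraries (1 to 8 with 1 left out). The calls among all tested genes also moved with the setting. In hair germ 108 rose and 27 fell in the main fit, against 486 and 162 by DESeq2. They were 278 and 37 with library size alone, 11 and 6 by limma-voom, and 43 and 11 by the older edgeR method. In interfollicular epidermis 707 rose and 192 fell in the main fit, against 420 and 121 by the older method. The causes were not tested.

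Small hair germ over interfollicular log2 values changed sign. C1qtnf1 over all pups was −0.0219 by limma-voom, −0.27 without pup 4, −0.018 without the Rn45s-rich libraries, −0.026 with the replicate block and −0.20 to 0.17 with 1 library left out. Chst15 in control pups was 0.28 with library size alone, 0.0028 without the Rn45s-rich libraries and −0.11 to 0.048 with 1 left out. With 1 left out, Oat in transgenic pups ranged from −0.81 to 0.048 and Slc1a3 in control pups from −0.88 to 0.18. Library size alone moved the median of all genes by up to 0.26 in these contrasts. Leaving out a library left 1 pup in its group, assumed to vary like the other groups.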
